A study of Mus musculus with 21 samples.

Results

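A set of genes widely used as markers of neurons was followed in cultured mouse glioma cells: Tubb3, Map2, Mapt, Dcx, Stmn2, Gap43, Syp, Syt1 and Sox11. They were taken by gene symbol, and each symbol matched 1 of the 54532 genes in the deposited expression table, giving 9 members. Expression was measured by polyA mRNA sequencing in 7 lines of glioma stem-like cells, established as cultures from the brain tumours of genetically engineered mouse models. The lines are PIC144-1, PIC144-3, PIC496-3 and PIC496-4, labelled IDH1 mutant (mutant lines below), and PC134-0, PC308-1 and PC326-1, labelled IDH1 WT (WT lines), with 3 libraries each and 21 in all. The labels give no treatment. All lines were grown without attachment in neural stem cell medium with EGF, bFGF and heparin at low oxygen. The labels name neither the promoter or Cre driver of the mouse models nor any other allele, and they do not say whether lines with the same number in their name came from the same animal. A line is 1 culture, so genotype was compared over lines, with the mean of a line's 3 libraries as its value.

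The mutant IDH1 enzyme of gliomas makes 2-hydroxyglutarate, a metabolite that inhibits 2-oxoglutarate-dependent enzymes, among them DNA and histone demethylases. The 9 markers serve several steps of becoming a neuron. Tubb3 (neuron-specific beta tubulin) builds microtubules, and Map2, Mapt (tau), Dcx (doublecortin) and Stmn2 (a stathmin) bind microtubules or tubulin and set their stability. Gap43 lies under the membrane of growth cones, Syp and Syt1 are proteins of synaptic vesicles, and Sox11 is not a structural protein but a SoxC transcription factor of newly formed neurons. Several of these genes are also expressed by neural progenitors and glioma cells, so none of them alone identifies a neuron.

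The upstream sequences of Tubb3, Syp and Dcx are shown because these 3 genes had the lowest IDH1 mutant to IDH1 WT ratios of mean level among the 9, and because CG dinucleotides, in capitals, are the sites of DNA methylation in mammals. Methylation was not measured here. The sequences are from RefSeq (GRCm38.p6), read 5′ to 3′ on the gene's own strand. They end where the gene begins in the deposited table, which is upstream of the RefSeq start. The stretches are chr8:123411303-123411423 (plus strand), chrX:7638330-7638470 (plus strand) and chrX:143933312-143933469 (minus strand).
Tubb3: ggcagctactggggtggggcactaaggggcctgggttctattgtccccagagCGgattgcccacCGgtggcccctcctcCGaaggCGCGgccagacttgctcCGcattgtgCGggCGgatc
Syp: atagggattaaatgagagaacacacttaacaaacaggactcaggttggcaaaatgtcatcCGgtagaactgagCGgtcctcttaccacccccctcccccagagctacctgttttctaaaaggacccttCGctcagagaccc
Dcx: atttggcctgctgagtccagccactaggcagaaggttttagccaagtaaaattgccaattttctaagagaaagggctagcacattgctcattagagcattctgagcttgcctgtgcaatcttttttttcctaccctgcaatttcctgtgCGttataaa

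The printed stretches hold 8 CG in 121 bases for Tubb3, 3 in 141 bases for Syp and 1 in 158 bases for Dcx. CG reads the same on both strands. In the 250 bases before the RefSeq start, Map2 had 34 CG, Tubb3 21, Sox11 17, Syp 11 and Dcx 3, and the windows before the 2 RefSeq starts of Syt1 had 8 and 5. The median over 32851 such windows of mouse genes was 6, with quartiles of 2 and 16, and 92.1% of the windows held at least 1. The windows of Map2, Tubb3 and Sox11 were thus above the upper quartile, that of Syp was between the median and the upper quartile, and that of Dcx was below the median. Mapt, Stmn2 and Gap43 were not among the 6 members matched.

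Levels are FPKM, fragment numbers scaled to gene length and to the depth of the library. The libraries held 15011668 to 21966351 fragments in genes. Replicate 2 of PIC496-4 stood apart from its line: the chi-square per gene between it and the other libraries of the line was 26.85 and 22.81, against 4.165 between those and 3.79 to 15.7 between libraries of the other lines. Differences between genotypes are given as log2(FPKM + 0.5) of IDH1 mutant minus WT line means, which understates differences of genes near 0. A gene was tested where at least 3 of the 7 lines had a mean of 0.5 FPKM or more, and 13379 genes met this. The test was limma on line means with Benjamini-Hochberg adjustment over these genes, and a gene was called at an adjusted p under 0.05. The difference of each member was also set against all 35 splits of the lines in an exact permutation test, two-sided, whose smallest possible p is 0.0286.

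Over the 9 members, Tubb3, Syp and Map2 had the smallest limma p-values between genotypes, each with a lower mean in mutant lines. Dcx was near 0 in all 4 mutant lines and also in the WT line PC326-1. The differences of Mapt, Gap43, Syt1 and Sox11 were smaller relative to the spread between lines. None of the 7 members tested was called between genotypes, beside 16 of 13379 genes (0.12%). At an unadjusted p under 0.05, a level that 12.8% of all tested genes reached (6.7% in the lower direction), were Tubb3 and Syp, both lower. Map2 and Syp had line means that did not overlap between genotypes, both lower in mutant lines, as had 13.3% of tested genes in either direction and 6.43% in this one. Syp passed the filter through the WT lines and PIC496-3, which favours lower levels in mutant lines. Its p and its lack of overlap are thus a description only. Of the 9 members, 8 had a negative difference, and the median was -0.60, beside 0.0072 over all tested genes, of which 49.2% were negative. Among markers of other cell types, 4 of 5 tested oligodendrocyte lineage markers were negative (median -1.02) and 5 of 6 astrocyte markers (median -0.51). Of the stem or progenitor markers 5 of 8 were negative (median -0.46). In that list Nes, with the smallest p (log2 difference 0.49), and Vim, the most abundant (0.36), were higher in mutant lines. With so few genes these counts are not read as a result. In bulk RNA, fewer cells that express a gene and less RNA per cell cannot be told apart. Of the 16 called genes, 3 lie on chromosome Y, and they were named after their values were seen. Ddx3y, Eif2s3y and Kdm5d were at 0 in both PIC496 lines and at 0.0836 to 1.39 FPKM in the PIC144 lines, against 2.04 to 29.1 FPKM in WT lines. Genotype and the level of these Y-linked genes cannot be told apart in these lines. Syp and Dcx lie on chromosome X, where the median difference of 483 tested genes was -0.04 and 55.1% were negative.

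**Figure D1:**
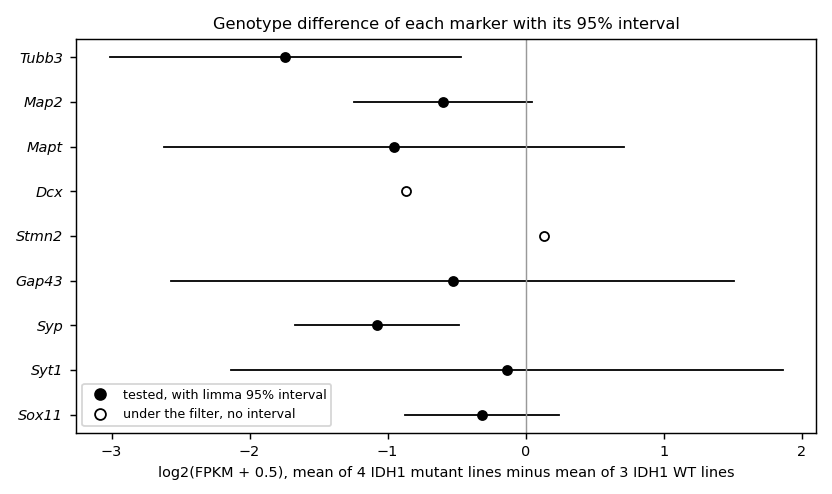
Difference of mean log2(FPKM + 0.5) between the 4 IDH1 mutant and the 3 WT lines (x axis) for each marker (y axis), with the limma 95% interval for the 7 members tested and open circles for Dcx and Stmn2, which were under the filter. The intervals of Tubb3 and Syp lie below 0 and those of the other 5 include 0.

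**Figure D2:**
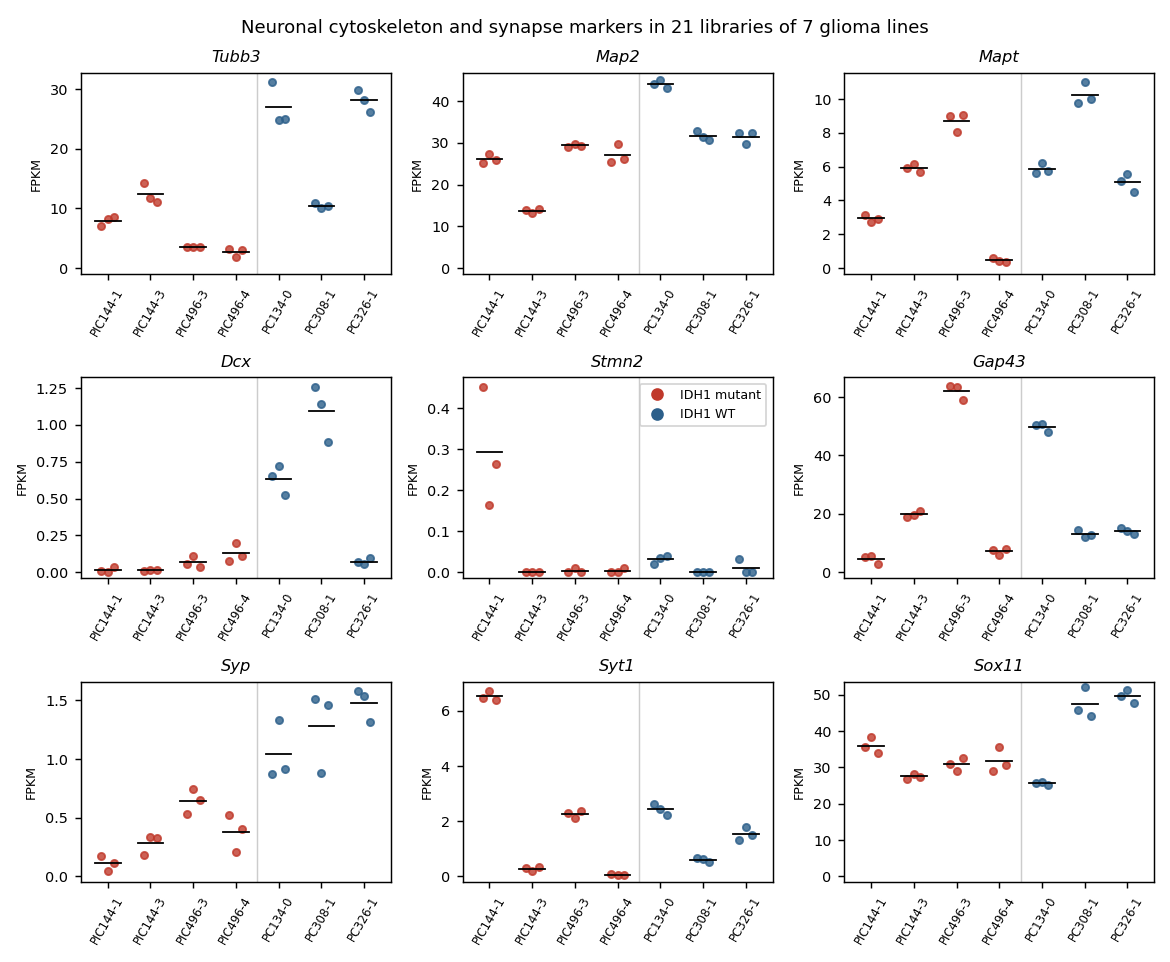
FPKM (y axis) of the 9 markers in each library (points) of the 7 lines (x axis), mutant lines in red on the left and WT lines in blue on the right, with a bar at the mean of the 3 libraries; each panel has its own scale from 0. Tubb3 is lowest in the PIC496 lines, Syp is lower in all 4 mutant lines than in the 3 WT lines, and Stmn2 stands out from 0 in PIC144-1.

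Tubb3 (ENSMUSG00000062380, chromosome 8 from 123411424 to 123422015 on the plus strand, GRCm38) encodes the beta tubulin that newly born neurons switch on. Tubb3 was at 7.10, 8.15 and 8.61 FPKM in the libraries of PIC144-1, 14.3, 11.7 and 11.2 in PIC144-3, 3.49, 3.54 and 3.58 in PIC496-3, and 3.18, 1.94 and 3.02 in PIC496-4. The WT libraries had 31.2, 24.8 and 24.9 FPKM in PC134-0, 10.8, 10.1 and 10.4 in PC308-1, and 29.9, 28.2 and 26.2 in PC326-1. Both PIC496 lines were lowest, while PIC144-3 lay above PC308-1, so the genotypes overlapped by that pair of lines. Tubb3 averaged 6.64 ± 4.46 FPKM in mutant lines (SD, n = 4) and 21.9 ± 9.88 FPKM in WT lines (SD, n = 3). The log2 difference was -1.74 (SE 0.548, 95% interval -3.02 to -0.47), a 3.35-fold lower level. The limma p was 0.0136 before and 0.314 after adjustment, and the exact permutation p was 0.0857. The difference was -0.98 without the PIC496 lines, an alternative added once the data had been seen. A limma fit over the 21 libraries with the line as a random effect gave -1.75 with an adjusted p of 0.0132, in a fit that called 552 of 13379 genes (4.13%). That fit takes the same within-line correlation for all genes, so its p can be too small for genes that differ strongly between lines.

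Tubb3 was a small part of the beta tubulin of these cells. Tubb5, the beta tubulin of dividing cells, averaged 616 ± 78.8 FPKM in mutant lines and 521 ± 57.2 FPKM in WT lines, and Tubb2b, of neural progenitors and young neurons, 319 ± 116 FPKM in mutant lines and 438 ± 41.4 FPKM in WT lines. The share of Tubb3 in the summed FPKM of 7 beta tubulin genes was 0.810% in PIC144-1, 0.937% in PIC144-3, 0.253% in PIC496-3 and 0.237% in PIC496-4. In WT lines the share was 2.02% in PC134-0, 0.916% in PC308-1 and 2.18% in PC326-1, and the lines stood in the same order as by FPKM. Among the other family members Tubb4b had the smallest p and the opposite sign, with 130 ± 25.1 FPKM in mutant lines and 80.9 ± 18.3 FPKM in WT lines (log2 difference 0.69, limma adjusted p = 0.307). Tubb2a was at 75.1 ± 50.6 FPKM in mutant lines and 130 ± 48.5 FPKM in WT lines, Tubb4a at 4.77 ± 1.67 FPKM in mutant lines and 4.93 ± 2.77 FPKM in WT lines and Tubb6 at 59.4 ± 12.7 FPKM in mutant lines and 59.2 ± 11.8 FPKM in WT lines. Beta tubulin genes are alike in sequence, and the counting of reads shared between them is not given in the sources used here, so their levels are uncertain to that extent.

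Map2 (ENSMUSG00000015222, chromosome 1 from 66175273 to 66442583 on the plus strand) encodes a microtubule-binding protein of dendrites. Map2 was at 25.3, 27.5 and 25.9 FPKM in PIC144-1, 13.96, 13.1 and 14.1 in PIC144-3, 29.0, 29.8 and 29.3 in PIC496-3, and 25.5, 29.8 and 26.0 in PIC496-4. The values in WT lines were 44.2, 45.1 and 43.1 FPKM in PC134-0, 32.8, 31.5 and 30.8 in PC308-1, and 32.4, 29.7 and 32.5 in PC326-1. Every mutant line mean was below every WT line mean, but the libraries of PIC496-3 and PC326-1 overlapped, so the gap between the genotypes was within the spread of libraries. Map2 averaged 24.1 ± 7.05 FPKM in mutant lines (SD, n = 4) and 35.8 ± 7.24 FPKM in WT lines (SD, n = 3), a log2 difference of -0.60 (SE 0.279, limma p = 0.0650, adjusted p = 0.411, exact permutation p = 0.0571). The low end was set by PIC144-3 and the high end by PC134-0, and without PIC144-3 the difference was -0.35. Of its exon bases, 124 (0.754%) are shared with the antisense gene Gm10558. Map2 had the second highest level of the 9 members in WT lines, after Sox11.

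Mapt (ENSMUSG00000018411, chromosome 11 from 104231390 to 104332090 on the plus strand) encodes tau, the microtubule-binding protein of axons. Mapt was at 3.15, 2.74 and 2.91 FPKM in PIC144-1, 5.91, 6.14 and 5.66 in PIC144-3, 8.97, 8.06 and 9.05 in PIC496-3, and 0.611, 0.430 and 0.360 in PIC496-4. WT lines had 5.61, 6.24 and 5.76 FPKM in PC134-0, 9.75, 10.997 and 10.004 in PC308-1, and 5.14, 5.57 and 4.49 in PC326-1. PIC496-4 stood apart at the low end, 18.6-fold below PIC496-3, while PIC496-3 and PIC144-3 lay among WT lines. Mapt averaged 4.50 ± 3.57 FPKM in mutant lines (SD, n = 4) and 7.06 ± 2.79 FPKM in WT lines (SD, n = 3), a log2 difference of -0.96 (SE 0.718, limma adjusted p = 0.576). Without PIC496-4 this difference was -0.30. Map4, the relative of Map2 and Mapt found in most cell types, was at 24.6 ± 4.52 FPKM in mutant lines and 26.4 ± 1.39 FPKM in WT lines.

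Dcx (ENSMUSG00000031285, chromosome X from 143855842 to 143933311 on the minus strand) encodes the microtubule-associated protein of migrating young neurons. Summed over the 3 libraries of a line, Dcx had 10 fragments in PIC144-1, 10 in PIC144-3, 46 in PIC496-3 and 88 in PIC496-4, against 406 in PC134-0, 729 in PC308-1 and 45 in PC326-1. The line means were 0.0162, 0.0138, 0.0684 and 0.129 FPKM in mutant lines in the same order, and 0.632, 1.10 and 0.0730 FPKM in WT lines. PC134-0 and PC308-1 thus lay above all other lines, and PC326-1 lay with mutant lines, between PIC496-4 and PIC496-3. Only PC134-0 and PC308-1 reached 0.5 FPKM, so Dcx was under the filter and had no limma test. Its exact permutation p was 0.0571 and its log2 difference -0.87. This was -1.83 with a pseudocount of 0.1, -3.28 with voom on recovered fragments and -0.54 without PC308-1. The paralogues Dclk1 and Dclk2, doublecortin-like kinases, were higher in level, with 9.15 ± 2.88 and 9.54 ± 1.88 FPKM in mutant lines and 8.43 ± 2.21 and 9.83 ± 0.709 FPKM in WT lines. Dclk3 was at 0.0759 FPKM or less in every line.

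Stmn2 (ENSMUSG00000027500, chromosome 3 from 8509360 to 8561606 on the plus strand) encodes a tubulin-binding protein needed for axon growth and repair. Stmn2 was at 0.452, 0.165 and 0.264 FPKM in PIC144-1, which is 82 fragments over the 3 libraries. Of the other mutant lines, PIC496-3 and PIC496-4 had 1 fragment each and PIC144-3 had 0, which allows up to 0.00958 FPKM at a floor of 3 fragments. In WT lines Stmn2 had 9 fragments in PC134-0, 3 in PC326-1 and 0 in PC308-1, which allows up to 0.0102 FPKM. Stmn2 was thus at or near 0 outside PIC144-1, and it was not tested between genotypes by limma (exact permutation p = 0.943).

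Stmn2 is 1 of 4 stathmins, which bind tubulin dimers, and its 3 relatives were expressed in all lines. Stmn1, the stathmin of dividing cells, was at 80.6 ± 7.25 FPKM in mutant lines and 82.6 ± 17.8 FPKM in WT lines. Stmn3, a stathmin of neurons, was at 1.13, 1.35, 12.05 and 1.08 FPKM in PIC144-1, PIC144-3, PIC496-3 and PIC496-4, against 23.8 FPKM in PC134-0, 13.5 in PC308-1 and 32.3 in PC326-1. The genotypes did not overlap for Stmn3, with PIC496-3 next to PC308-1, and its log2 difference of -3.01 (SE 0.743) had a limma p of 0.00398 and an adjusted p of 0.258. Stmn4 had the opposite sign, with 2.46 ± 1.27 FPKM in mutant lines and 1.22 ± 0.647 FPKM in WT lines (limma adjusted p = 0.464).

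**Figure D3:**
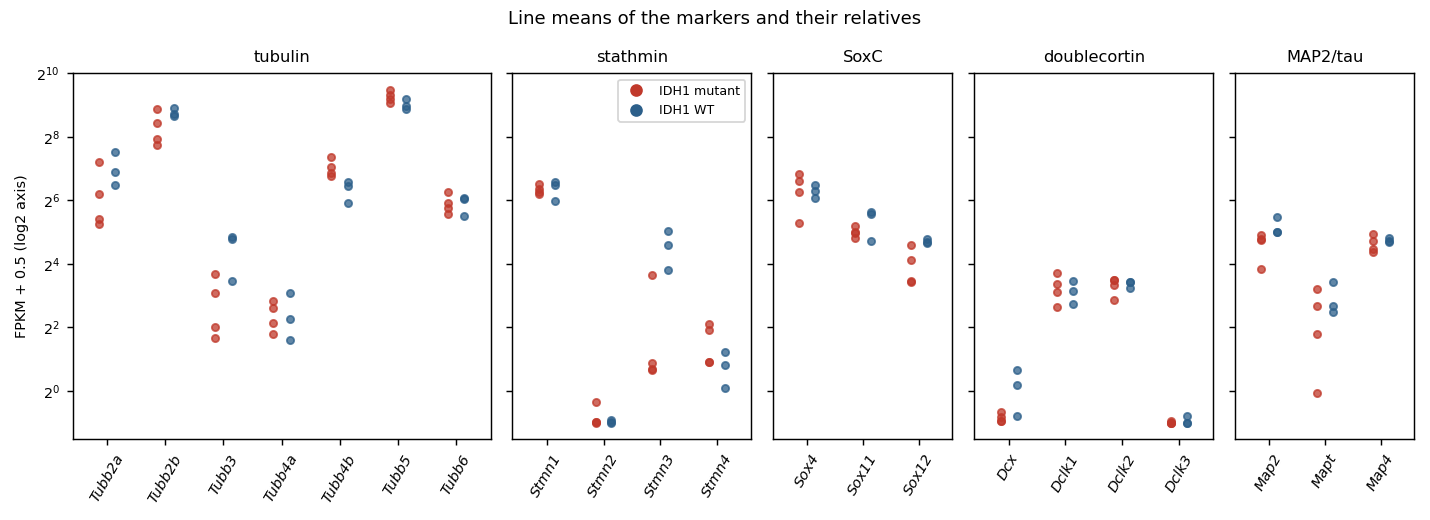
Line means as FPKM + 0.5 on a log2 axis for the tubulin, stathmin, SoxC, doublecortin and MAP2/tau genes, each point 1 line, IDH1 mutant in red left of IDH1 WT in blue. On this scale Tubb3 and Stmn3 have the largest differences between genotypes in these families, while Tubb5, Stmn1, Dclk2 and Map4 are close in both. The scale understates the difference of Dcx, which is near 0 in most lines.

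Gap43 (ENSMUSG00000047261, chromosome 16 from 42248442 to 42340651 on the minus strand) encodes the growth cone protein of extending and regenerating axons. Gap43 was at 5.07, 5.61 and 2.99 FPKM in PIC144-1, 18.9, 19.7 and 20.9 in PIC144-3, 63.7, 63.6 and 59.0 in PIC496-3, and 7.59, 5.87 and 8.12 in PIC496-4. Among WT lines it was at 50.5, 50.7 and 47.9 FPKM in PC134-0, 14.6, 12.1 and 12.8 in PC308-1, and 15.005, 13.98 and 12.96 in PC326-1. The highest and the lowest line were both IDH1 mutant, 13.6-fold apart, with WT lines between them. Gap43 averaged 23.4 ± 26.6 FPKM in mutant lines (SD, n = 4) and 25.6 ± 20.9 FPKM in WT lines (SD, n = 3). The log2 difference of -0.53 (SE 0.879, limma adjusted p = 0.813) was smaller than the spread between lines, and it was 0.0837 without PC134-0.

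Syp (ENSMUSG00000031144, chromosome X from 7638471 to 7653256 on the plus strand) encodes synaptophysin, a membrane protein of synaptic vesicles. Syp was at 0.174, 0.0443 and 0.118 FPKM in PIC144-1, 0.185, 0.332 and 0.330 in PIC144-3, 0.529, 0.745 and 0.647 in PIC496-3, and 0.523, 0.211 and 0.406 in PIC496-4. The WT libraries had 0.874, 1.33 and 0.915 FPKM in PC134-0, 1.51, 0.885 and 1.46 in PC308-1, and 1.58, 1.54 and 1.31 in PC326-1. Every library of a mutant line was below every library of a WT line, and the nearest were 0.745 in PIC496-3 and 0.874 in PC134-0. Syp averaged 0.354 ± 0.221 FPKM in mutant lines (SD, n = 4) and 1.27 ± 0.219 FPKM in WT lines (SD, n = 3). The log2 difference was -1.08 (SE 0.257, 95% interval -1.67 to -0.48), the limma p was 0.00319 before and 0.242 after adjustment, and by this p it ranked 175 of 13379 genes. The exact permutation p of 0.0286 was the smallest the design allows, and it was 0.0571 with a pseudocount of 0.1, where the difference was -1.72, after rescaling to TPM, after quantile normalization and without replicate 1. Syp rested on 29 to 173 fragments per mutant line and 275 to 379 per IDH1 WT line. It entered the test because the 3 WT lines and PIC496-3 reached the filter. Passing in this way favours lower levels in mutant lines, so the p-values, interval and rank of Syp are a description only. Syp shares 875 exon bases, 16.8% of its exons, with the antisense gene Gm14703. Whether the counting used strand is not given in the sources used here.

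Syt1 (ENSMUSG00000035864, chromosome 10 from 108497650 to 109010982 on the minus strand) encodes synaptotagmin 1, the calcium sensor of fast transmitter release. Syt1 was at 6.47, 6.72 and 6.41 FPKM in PIC144-1, 0.319, 0.193 and 0.329 in PIC144-3, 2.28, 2.13 and 2.36 in PIC496-3, and 0.0726, 0.0592 and 0.0650 in PIC496-4. The values in WT lines were 2.63, 2.44 and 2.22 FPKM in PC134-0, 0.672, 0.631 and 0.530 in PC308-1, and 1.34, 1.79 and 1.49 in PC326-1. The mutant lines held both ends of the range, 99.6-fold apart, while WT lines differed 3.97-fold. Syt1 averaged 2.28 ± 3.00 FPKM in mutant lines (SD, n = 4) and 1.53 ± 0.909 FPKM in WT lines (SD, n = 3). The FPKM means thus stood higher in mutant lines while the log2 difference was -0.14 (SE 0.861, limma adjusted p = 0.957), and its sign turned without PIC144-3 (0.24), PIC496-4 (0.40) or PC134-0 (0.18).

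Sox11 (ENSMUSG00000063632, chromosome 12 from 27334264 to 27342574 on the minus strand) had the most even level of the 9 members across mutant lines. Sox11 was at 35.6, 38.2 and 33.97 FPKM in PIC144-1, 26.9, 28.1 and 27.4 in PIC144-3, 30.9, 29.0 and 32.7 in PIC496-3, and 29.0, 35.5 and 30.6 in PIC496-4. WT lines had 25.8, 26.0 and 25.1 FPKM in PC134-0, 45.8, 52.2 and 44.3 in PC308-1, and 49.7, 51.3 and 47.6 in PC326-1. The mutant lines lay within 1.31-fold of each other, and WT lines held both the lowest and the 2 highest lines. Sox11 averaged 31.5 ± 3.48 FPKM in mutant lines (SD, n = 4) and 40.9 ± 13.2 FPKM in WT lines (SD, n = 3), a log2 difference of -0.32 (SE 0.241, limma adjusted p = 0.578). This difference was -0.62 without PC134-0, -0.18 without PC308-1 and -0.15 without PC326-1. Of the other SoxC factors, Sox4 was at 81.4 ± 31.8 FPKM in mutant lines and 78.0 ± 11.1 FPKM in WT lines, and Sox12 at 15.3 ± 6.25 FPKM in mutant lines and 25.8 ± 1.18 FPKM in WT lines (log2 difference -0.82, limma adjusted p = 0.344).

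In WT lines Sox11 deviated in the same direction as the genes around it. Sox11 deviated from its mean over the 7 lines by -0.42 in PC134-0, 0.45 in PC308-1 and 0.51 in PC326-1 (log2), and the median of 29 tested genes within 5 Mb deviated by -0.55, 0.30 and 0.75 in the same lines. In mutant lines Sox11 deviated by 0.06, -0.32, -0.16 and -0.12 in PIC144-1, PIC144-3, PIC496-3 and PIC496-4, and its neighbours by -0.16, -0.18, 0.04 and 0.13. Sox11 and its neighbours had the same sign in all 3 WT lines and in 1 of the 4 mutant lines. Over the 487 tested genes of chromosome 12 the median deviation was -0.49 in PC134-0 and 0.49 in PC308-1, but -0.48 in PC326-1, where the neighbours of Sox11 were high. The part of these regional shifts in the level of Sox11 was not tested. The neighbours of Tubb3 (100 genes) and Syp (41 genes) had medians between -0.07 and 0.06 and between -0.12 and 0.12 in the 7 lines.

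**Figure D4:**
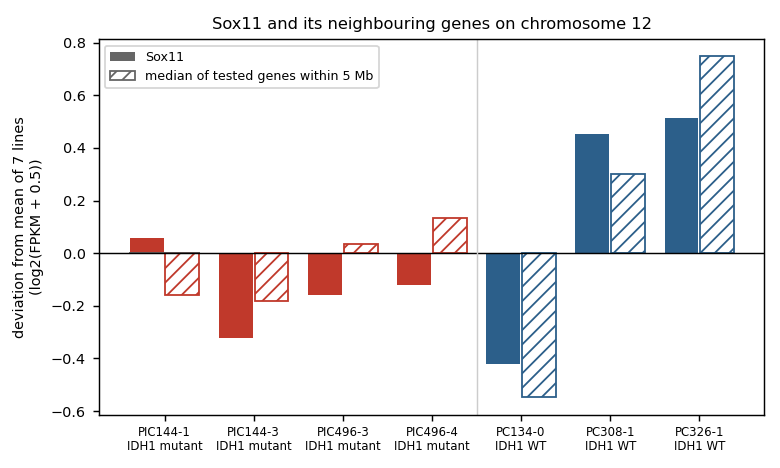
Deviation from the mean of 7 lines, in log2(FPKM + 0.5), of Sox11 (filled bars) and of the median of the 29 tested genes within 5 Mb of it (hatched bars) in the 4 mutant lines (red, left) and the 3 WT lines (blue, right). Both are below 0 in PC134-0 and above 0 in PC308-1 and PC326-1.

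The lines of a genotype differed from each other in most of these genes, as they did in most genes of the table. Between the 4 mutant lines, a limma F test over libraries called 7 of the 7 members tested, against 80.7% of all tested genes. Between the 3 WT lines it called 6 of 7, against 61.4% of all tested genes, with Syp (adjusted p = 0.167) not called. With so few members these counts are not read against the background as a result, and the libraries of a line may differ only technically. The sizes of these differences varied: the ratio of the highest to the lowest mutant line was 99.6 for Syt1, 18.6 for Mapt and 13.6 for Gap43, and 5.72 for Syp, 4.57 for Tubb3, 2.14 for Map2 and 1.31 for Sox11. Among WT lines the ratios of these members ran from 1.40 for Map2 to 3.97 for Syt1.

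The lines PIC496-4 and PIC496-3 share a number in their name and differed most in Mapt, Gap43 and Syt1. In PIC496-4, 4 of the 7 tested members were called lower than in PIC496-3, while 26.4% of all tested genes were called lower and 51.5% in either direction. Mapt fell by 3.26 (SE 0.0924), Gap43 by 3.04 (SE 0.150), Syt1 by 2.28 (SE 0.0979) and Tubb3 by 0.35 (SE 0.129, limma adjusted p = 0.0295) on the log2 scale. Map2 (-0.12), Syp (-0.39) and Sox11 (0.04) were not called. Without replicate 2 of PIC496-4, an alternative added once the data had been seen, Tubb3 was no longer called (-0.17, limma adjusted p = 0.213), while Map2 was (-0.19, limma adjusted p = 0.00700). Mapt, Gap43 and Syt1 were called in both fits.

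The lines PIC144-1 and PIC144-3 differed in other directions. In PIC144-1 against PIC144-3, 58.2% of all tested genes were called, 30% lower and 28.2% higher. Of the members, Syt1 rose by 3.18 (SE 0.0979), Map2 by 0.91 (SE 0.0577) and Sox11 by 0.38 (SE 0.0730), while Gap43 fell by 2.05 (SE 0.150), Mapt by 0.90 (SE 0.0924) and Tubb3 by 0.60 (SE 0.129) on the log2 scale. Syp did not pass (-0.35, limma adjusted p = 0.0841). Syt1 and Gap43 thus moved in opposite directions in PIC144-1 and in the same direction in PIC496-4, relative to the line sharing their number.

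**Figure D5:**
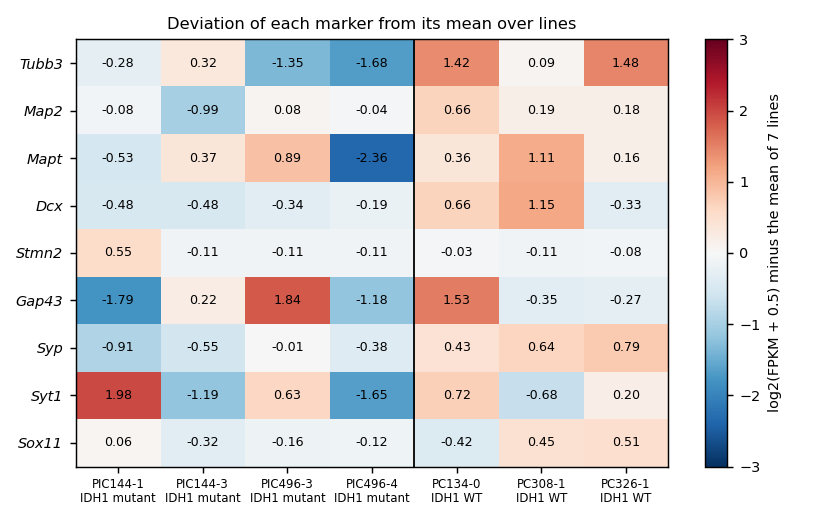
Deviation of each marker (rows) from its mean over the 7 lines in log2(FPKM + 0.5) (colour and number), mutant lines left of the black line and WT lines right of it. PIC496-4 is low in Tubb3, Mapt, Gap43 and Syt1, PIC144-1 is high in Syt1 and low in Gap43, and Syp is below 0 in all 4 mutant lines.

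No 2 lines had the same pattern over the 9 genes. The median deviation of the 9 members was -0.28 in PIC144-1, -0.32 in PIC144-3, -0.0083 in PIC496-3 and -0.38 in PIC496-4, and 0.66 in PC134-0, 0.19 in PC308-1 and 0.18 in PC326-1, against -0.0076 to 0.0046 over all tested genes. Over the 7 line means, Pearson's r between pairs of members ran from -0.58 for Stmn2 with Syp to 0.75 for Stmn2 with Syt1, and the highest line of both Stmn2 and Syt1 was PIC144-1. Mapt and Gap43 had r = 0.60, and Tubb3 and Map2 had r = 0.24.

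Of 11472 named genes compared over the 7 line means, those most like Tubb3 were Ndel1, a partner of the dynein motor (r = 0.99), Tshz2, a zinc finger factor (r = 0.98), and Washc1, of the WASH actin complex (r = 0.98). Most like Map2 were Trp53bp1, Rbsn and Katnbl1 (r = 0.99, 0.98 and 0.93), and most like Mapt were Dennd5a, Mamld1 and Itpkb (r = 0.996, 0.992 and 0.990). Gap43 was most like Epb41l4a, Klf10 and Sncb (r = 0.98, 0.97 and 0.96), of which Sncb encodes beta-synuclein of presynaptic endings. Syp was most like Casc4, Tspan18 and Nfil3 (r = 0.98 each), and Syt1 most like Ttll1, Fkbp5 and Snora20 (r = 0.98, 0.97 and 0.96). Sox11 was most like Pygl, Taf1b and Tmem18 (r = 0.98, 0.97 and 0.93), all 3 of them on chromosome 12. These values rest on 7 lines and were picked as the highest of 11472, so they are a description and carry no test.

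Other genes of the neuronal cytoskeleton and growth cone, 25 in the list and 21 of them tested, included no called gene in either direction, and 15 of the 21 were negative (median -0.29, beside 0.0072 over all tested genes). At an unadjusted p under 0.05, which 12.8% of all tested genes reached (6.7% in the lower direction), were 4 genes, all lower: Stmn3, given above, Fez1, an adaptor of kinesin transport, and, named after their values were seen, Map1a, a microtubule-binding protein (4.15 ± 1.67 FPKM in mutant lines and 7.07 ± 0.726 FPKM in WT lines), and Kif1a, a vesicle motor (32.4 ± 6.58 FPKM in mutant lines and 42.99 ± 2.87 FPKM in WT lines). Fez1 was at 10.7 ± 3.18 FPKM in mutant lines and 17.8 ± 2.83 FPKM in WT lines (log2 difference -0.74, limma adjusted p = 0.324). The most abundant genes of the list were Tuba1a, an alpha tubulin, at 716 ± 142 FPKM in mutant lines and 625 ± 25.02 FPKM in WT lines, and Tubb2b, given above.

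Of 25 genes of synaptic vesicles and release, 14 were tested, none was called, and 12 of the 14 were negative (median -0.35), beside 49.2% of all tested genes. Unc13a, which primes vesicles for release, was at 2.78 ± 0.648 FPKM in mutant lines and 4.89 ± 0.340 FPKM in WT lines (log2 difference -0.73, limma adjusted p = 0.270). Syt11, a synaptotagmin, was the most abundant at 62.1 ± 24.1 FPKM in mutant lines and 65.3 ± 9.87 FPKM in WT lines.

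Of 15 postsynaptic scaffold genes, 12 were tested, none was called and 9 were negative (median -0.32). Nlgn3, a synaptic adhesion protein, was at 0.0297, 0.0169, 0.0474 and 0.0126 FPKM in PIC144-1, PIC144-3, PIC496-3 and PIC496-4, against 1.08 FPKM in PC134-0, 2.00 in PC308-1 and 0.798 in PC326-1. Nlgn3 had the smallest p of the list (log2 difference -1.71, limma adjusted p = 0.104), and it passed the filter through the 3 WT lines, so that it had to differ. Nlgn2, an adhesion protein of inhibitory synapses, was at 25.9 ± 8.24 FPKM in mutant lines and 40.1 ± 4.24 FPKM in WT lines (limma adjusted p = 0.385), and Camk2b, a calcium-dependent kinase, at 28.9 ± 17.7 FPKM in mutant lines and 15.5 ± 2.49 FPKM in WT lines.

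Of 25 neuronal transcription factors and RNA-binding proteins, 10 were tested, none was called and 6 were negative (median -0.14). A further 10 were at or under 0.1 FPKM in every line, among them the neuronal differentiation factors Neurod1, Neurod2 and Neurod6, which were named after their values were seen. Sox12, given above, had the smallest p, followed by Elavl4, an RNA-binding protein of neurons, at 1.48 ± 0.959 FPKM in mutant lines and 3.16 ± 1.90 FPKM in WT lines (limma adjusted p = 0.433). Sox4, given above, was the most abundant.

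All 16 genes of a list of repressors of neuronal genes were tested, none was called, and 7 were negative (median 0.05). Hes5 and Id1, targets of Notch and BMP signalling that hold back neuronal differentiation, had the smallest p-values, and both were lower in mutant lines. Hes5 was at 1.11 ± 1.00 FPKM in mutant lines and 5.17 ± 1.75 FPKM in WT lines (limma adjusted p = 0.279), and Id1 at 4.95 ± 1.82 FPKM in mutant lines and 17.9 ± 13.9 FPKM in WT lines (limma adjusted p = 0.305). Rest, the repressor of neuronal genes in other cells, was named after its values were seen and was at 11.6 ± 2.59 FPKM in mutant lines and 11.1 ± 1.31 FPKM in WT lines (limma adjusted p = 0.928). The most abundant were Rcor2, a partner of the REST complex, at 86.6 ± 14.4 FPKM in mutant lines and 67.7 ± 14.6 FPKM in WT lines, and Ptbp1, a repressor of neuronal splicing, at 82.0 ± 15.4 FPKM in mutant lines and 71.4 ± 4.39 FPKM in WT lines.

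The cells carried few marks of mature neurons. Of 10 neuron markers, 3 were tested (Gad1, Thy1 and Syn1), and their summed level with the other 7 was 5.43 to 13.97 FPKM in mutant lines and 8.54 to 12.7 FPKM in WT lines, of which Syn1 was the most abundant (5.34 ± 1.55 FPKM in mutant lines and 6.15 ± 0.717 FPKM in WT lines). Slc17a6, a glutamate transporter of neurons, was at 0 in every line, Snap25 reached at most 0.1003 FPKM, and Rbfox3, the NeuN antigen, at 0.419 FPKM or less. Genes of stem and progenitor cells were abundant, with Vim, the highest of their list, at 543 ± 102 FPKM in mutant lines and 422 ± 80.8 FPKM in WT lines. Of the 8 genes of this list 5 had negative differences, among them Sox2 at 169 ± 49.9 FPKM in mutant lines and 224 ± 6.93 FPKM in WT lines. Nes, which had the smallest p of the list, was higher in mutant lines (log2 difference 0.49, limma adjusted p = 0.281). Its line means were 62.5 to 80.5 FPKM in mutant lines and 46.9 to 52.7 FPKM in WT lines. Olig1 led the oligodendrocyte lineage list at 482 ± 173 FPKM in mutant lines and 483 ± 119 FPKM in WT lines. In the same list Pdgfra, a growth factor receptor of oligodendrocyte precursors, was at 5.29 ± 3.83 FPKM in mutant lines and 42.8 ± 53.3 FPKM in WT lines (limma adjusted p = 0.373), and Cnp, a myelin enzyme, at 12.2 ± 4.19 FPKM in mutant lines and 24.9 ± 7.05 FPKM in WT lines (limma adjusted p = 0.298). Aldoc led the astrocyte list at 269 ± 86.3 FPKM in mutant lines and 216 ± 71.9 FPKM in WT lines, and the other 5 tested genes of the list had negative differences, such as Gja1 at 7.43 ± 4.87 FPKM in mutant lines and 12.3 ± 6.63 FPKM in WT lines. Sox2, Nes, Pdgfra, Cnp and Gja1 were named after their values were seen. None of the tested genes of these 3 lists was called, and Gfap was at 0.186 FPKM or less. The 6 microglia and immune markers summed to 0.0993 to 0.257 FPKM in mutant lines and 0.282 to 1.38 FPKM in WT lines, and the 5 endothelial markers to 0.0802 to 0.369 FPKM in mutant lines and 0.335 to 0.844 FPKM in WT lines, with Cldn5 at 0 in every line. The 7 mural and fibroblast markers summed to 0.777 to 11.2 FPKM in mutant lines and 0.760 to 2.37 FPKM in WT lines, the high value being Dcn at 10.4 FPKM in PIC144-1, the line with the highest Syt1 and Stmn2. The part of these cell type markers in the levels of the 9 genes was not tested. The 10 proliferation genes summed to 394 to 459 FPKM in mutant lines and 361 to 451 FPKM in WT lines, with none called.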

How the data were processed

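Messenger RNA of 7 glioma lines was sequenced in 21 strand-specific polyA libraries, per the labels' protocols. HISAT2 and mm39 are named in the submitters' processing notes, but the gene coordinates deposited are those of GRCm38: 54495 of 54532 gene IDs were in GENCODE M21, and 53585 had the same coordinates, so GRCm38 is given. The read counter is not given in the sources used here, nor is its use of strand. The authors deposited FPKM per gene, that is fragments per gene scaled to its length and to library size. Whole fragments were recovered from these FPKM (within 0.05 fragments for 100% of values under 1000 fragments) and give the depths and floors (3 fragments per line), which cover counting error only. The labels call the libraries of a line biological replicates and do not say whether they came from separate cultures.

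Genotype was tested in R 4.3.3 with limma 3.58.1 (lmFit, eBayes with trend and robust) on log2(FPKM + 0.5) of line means, and differences between lines over the libraries. Spread between lines, or between libraries, which may be technical, is what the p-values measure. The members and lists were chosen with earlier results of these data known. Named were all members, the genes of their families, in each list the 2 genes with the smallest p and the 2 most abundant (of cell type lists, the most abundant and those near 0), and the 3 genes most like each tested member, except that a few genes named by this rule are left out of the text and not reported here. Alternatives were other pseudocounts, filters, scalings and fits, and leaving out lines or replicates. The fits were also run on simulated data with independent normal noise. That setting does not cover genes near 0, and its outcome is not reported here. Figures were drawn with matplotlib 3.10.9.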

Additional observations from a re-analysis of the deposited data

Results flagged for a closer look

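Stmn2 in PIC144-1 lay far from the other IDH1 mutant lines, at 0.294 FPKM, where PIC144-3, PIC496-3 and PIC496-4 were at 0, 0.00312 and 0.00323 FPKM. Its gap to the nearest line was 0.989 of the whole range of the 4 lines. The rule flags about 1 of 20 groups by chance where values are normally distributed, a rate that need not hold for lines at or near 0. Of the 9 members this was the only one flagged among the 4 IDH1 mutant lines, the only group large enough for the rule. All 3 libraries of PIC144-1 held Stmn2 fragments.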

How the results depend on the processing

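The count of called members was 0 under 29 of 31 alternatives. It was 1, Tubb3, over the 21 libraries with the line as a random effect (adjusted p = 0.0132), and 1 with the replicate block added (adjusted p = 0.0194). Both fits take the same within-line correlation for all genes, so these p-values can be too small. Libraries with the same replicate number were little alike in the median pair. The correlation of deviations within a number ran from -0.12 to 0.29 (median 0.0149, beside -0.011 between numbers), and 14 of 63 pairs exceeded 0.1. Pairs over 0.1 were not counted between numbers, so pairing of some libraries is not excluded. The replicate block changed none of the 4 counts between lines. These counts stayed at 5 to 8 for the IDH1 mutant lines, 5 to 7 for the IDH1 WT lines, 3 to 4 for the PIC496 pair and 5 to 7 for the PIC144 pair over 11 alternatives. The median difference of the 9 members was -0.88 to -0.32 when 1 line was left out, -0.88 without both PIC496 lines and -0.93 with voom on recovered fragments. These last 2, leaving out replicate 2 of PIC496-4, and single lines left out over an unchanged set of genes were chosen after seeing the data. Syt1 turned to 0.44 with lines sharing a number averaged and to 0.32 without both PIC496 lines, and ran from -0.82 to 0.40 when 1 line was left out. Gap43 ran from -1.22 to 0.0837 and Stmn2 from -0.0333 to 0.19 when 1 line was left out. Tubb3, Map2, Mapt, Dcx, Syp and Sox11 kept their sign under all 31 alternatives. The 16 genes called over the table were 0 without PC134-0, 0 without PC326-1, 29 without PC308-1 (1, 3 and 48 without PC134-0, PC326-1 and PC308-1 over that unchanged set), 9 without PIC144-1, 10 without PIC496-3, 5 without PIC496-4, 5 without both PIC496 lines, 4 with lines sharing a number averaged, 3 with no filter, 8 with the stricter filter, 552 with the random effect and 440 with the block. With voom 0 were called and 1566 had an unadjusted p under 0.05. The causes were not tested. Depth limits Dcx and Stmn2 most.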
